A study of Mus musculus with 192 samples.

Results

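Notch1, Jag1, Efnb2 and Ephb4 are 4 of the 96 assays that were read by single-cell quantitative PCR in 192 mouse cells, and they were found in the table by gene name alone. Notch1 was detected in 62 cells, Jag1 in 45, Efnb2 in 5 and Ephb4 in 0. The cells came from dorsal skin wounds of recipient mice that had been surgically joined (parabiosis), so that blood is shared, to donors that express green fluorescent protein (GFP). They were sorted as GFP-positive and negative for lineage markers, so GFP marks them as donor cells, and WT or EKO refers to the recipient. Recipients were wild type (WT) or lacked the chemokine Cxcl12 in their endothelium (EKO), and the stated purpose of the panel was to describe the progenitor cells that each recruits.

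Notch1 is a cell-surface receptor that is cut when it meets a ligand on a neighbouring cell, and the freed intracellular part then acts in the nucleus as a transcription regulator. Jag1 (Jagged1) is one of its membrane-bound ligands, and Notch signalling is known for setting arterial identity, tip and stalk choice in vessel sprouts and the fate of blood and mesenchymal progenitors. Efnb2 encodes ephrin B2, a membrane-bound ligand that marks arterial endothelium, and Ephb4 encodes its receptor, which marks venous endothelium. Notch2, a second Notch receptor, was the only other Notch gene analysed here, so 3 of the 23 genes of the Notch pathway list and 2 of the 11 ephrin and Eph receptor genes could be read. No other Notch ligand, and neither Rbpj nor a Hes or Hey gene, was analysed here.

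Each genotype has 96 cells, 48 in each of 2 sets named A and B. The WT cells bear the lower cell numbers of each set and the EKO cells the higher ones, so genotype cannot be told apart from position in the set. No label names an animal, the promoter behind the endothelial deletion or the day of harvest. Each genotype is therefore 1 sample with no replicate check, and no difference was tested. Shares carry exact Clopper-Pearson 95% intervals, and differences of shares, in percentage points, carry Newcombe 95% intervals. Both cover counting error between cells only. Where a gene was detected in 0 cells, the upper limit given is 3 counts over the number of cells, in place of the Clopper-Pearson bound.

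The deposited value was read as the cycle threshold (Ct), the PCR cycle in which the fluorescence of a reaction passes a set level. A lower Ct is a higher level, 1 cycle is about one doubling, and a reaction below Ct 40 counted as detected. Cells detected between 4 and 70 assays. The 170 cells with at least 10 assays were kept, and they detected a median of 21 assays in WT (93 cells) and 34 in EKO (77 cells). Among the 95 cells with at least 24 assays the medians were 46.5 in WT (42 cells) and 45 in EKO (53 cells), so values from this narrower set are given beside or in place of those from the kept cells, as stated. Doublets were not called.

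Notch1 and Jag1 were more frequent in cells that detected more other assays, but along different curves. With 4 to 9 other assays, Notch1 was detected in 0 of 22 cells, a count that sets an upper limit of 13.6%. With 10 to 23 it was found in 14 of 76 cells (18.4%, interval 10.5 to 28.97%), with 24 to 39 in 17 of 36 (47.2%, 30.4 to 64.5%), with 40 to 54 in 19 of 40 (47.5%, 31.5 to 63.9%) and with 55 or more in 12 of 18 (66.7%, 40.99 to 86.7%). The receptor was thus seen in cells with sparse profiles too. Jag1 was not.

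Jag1 was detected in 0 of 75 cells with 10 to 23 other assays (upper limit 4%). It appeared in 7 of 37 cells with 24 to 39 (18.9%, interval 7.96 to 35.2%), in 23 of 40 with 40 to 54 (57.5%, 40.9 to 72.96%) and in 15 of 18 with 55 or more (83.3%, 58.6 to 96.4%). All 45 Jag1 cells therefore had at least 24 assays, whereas 13 of the 62 Notch1 cells did not. Notch2 followed a steeper course, from 13 of 75 cells (17.3%) to 31 of 38 (81.6%), 39 of 41 (95.1%) and 15 of 16 (93.8%).

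**Figure D1:**
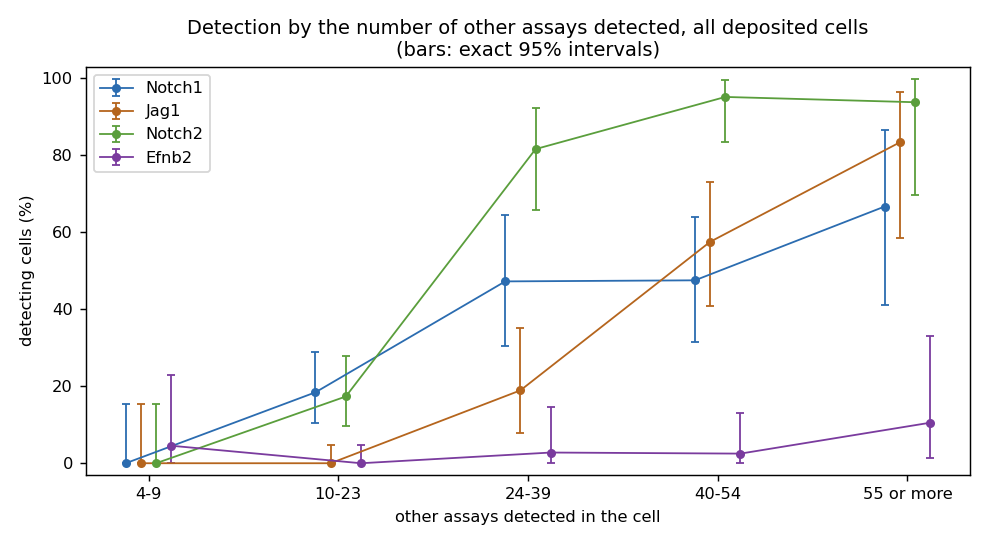
Share of the deposited cells that detected Notch1, Jag1, Notch2 or Efnb2 (vertical axis, percent) by the number of other assays detected in the cell (horizontal axis, 5 ranges), with exact 95% intervals as bars. Jag1 stands at 0 below 24 assays and at 83.3% at 55 or more, while Notch1 already stands at 18.4% with 10 to 23.

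The cells were then divided by what else they detected. Cells with Col1a1, which encodes a chain of type I collagen, below Ct 16 were called collagen-high (46 kept cells). Cells that detected Ptprc, the pan-leukocyte marker CD45, numbered 102, and cells that detected Cdh5, the endothelial adhesion molecule VE-cadherin, numbered 13. The classes overlapped: 31 of the 46 collagen-high cells also detected Ptprc, 8 of the 13 Cdh5 cells did, and 2 cells belonged to all 3 classes. Where classes are compared without overlap, they are the 44 collagen-high cells without Cdh5, the 65 cells with Ptprc only, the 11 Cdh5 cells that were not collagen-high and the 48 cells of no class. Their median numbers of assays were 51.5, 26, 50 and 15.

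The classes were set against marker lists with the defining genes Col1a1, Ptprc and Cdh5 taken out of the lists that held them. Collagen-high cells without Cdh5 detected a median of 5 of the other 6 mesenchymal markers (range 4 to 6), with 2 of 7 haematopoietic and 2 of 8 endothelial ones. The Ptprc-only cells detected a median of 2 of 7 haematopoietic markers too (range 0 to 5), with 1 of 6 mesenchymal and 0 of 8 endothelial. They did so at a median of 26 assays against 51.5, so the equal medians do not say whether the classes differ as haematopoietic. Single markers went both ways. Kit was detected in 24.6% of Ptprc-only and 6.82% of collagen-high cells without Cdh5, and Adgre1 in 16.9% and 0%. Runx1 was detected in 41.5% and 97.7%, and Ccr2 in 24.6% and 40.9%. The Cdh5 cells that were not collagen-high detected a median of 8 of the other 8 endothelial markers, but the range ran from 0 to 8. They also detected a median of 3 of 7 haematopoietic markers (range 0 to 7) and 2 of 6 mesenchymal ones (1 to 3), at a median of 50 assays. The classes are therefore named by the gene that chose them and by no cell type. Whether wells with more than 1 cell contributed to the overlaps was not tested.

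Notch1 was most often found in Cdh5 cells and least often in collagen-high cells. Among cells with at least 24 assays it was detected in 10 of 12 Cdh5 cells (83.3%, interval 51.6 to 97.9%), in 40 of 73 Ptprc cells (54.8%, 42.7 to 66.5%) and in 18 of 46 collagen-high cells (39.1%, 25.1 to 54.6%). Without overlap the shares were 9 of 10 for Cdh5, 20 of 36 (55.6%) for Ptprc only and 17 of 44 (38.6%) for collagen-high. The lower place of collagen-high was not clear, as collagen-high minus Ptprc only was -16.9 points with an interval from -36.6 to 4.82. In the kept cells these shares were 38.6% for collagen-high and 41.5% for Ptprc only. The Cdh5 cells exceeded the collagen-high cells by 51.4 points (interval 17.6 to 66.7) at nearly the same median of assays, 51 against 51.5. Of these 10 Cdh5 cells 9 were EKO cells of set A, whereas the collagen-high cells were of both genotypes and sets. In set A the counts were 8 of 9 and 7 of 22, and set B held 1 such Cdh5 cell, which detected Notch1. Among EKO cells of set A alone, the counts were 8 of 9 Cdh5 and 3 of 7 collagen-high cells. The same 10 cells stand for Cdh5 in the comparisons without overlap of Jag1 and Notch2 below.

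A fixed size of 20 points was used to place the members among the other assays. Against all other cells with at least 24 assays, Notch1 was 36.3 points higher in Cdh5 cells (interval 6.27 to 52.2), a size that 30.5% of 95 assays reached in that direction. In the kept cells it was 43.8 points higher there (15.6 to 60.2), where 42.1% of assays were 20 points or more higher. With at least 24 assays it was 24.1 points lower in collagen-high cells (interval -41.7 to -4.04), where only 9.47% of assays were as much as 20 points lower and Notch1 ranked 90th of 95 from the top. Set A gave -38.8 points and set B -8.70. In the kept cells, where collagen-high cells are compared with many cells of few assays, the same difference was 3.65 points (-11.8 to 20.1), so its direction differed between these choices of cells.

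In the kept cells Notch1 was 24.02 points higher in Ptprc cells than in the rest (interval 9.43 to 36.7; set A 24.04, set B 23.4), past the 20 points that 21.1% of assays reached upward. With at least 24 assays it was 13.9 points higher (-9.43 to 34.6), short of the 20 points that 5.26% of assays reached upward and 18.9% downward. Only 5 Ptprc-only cells had 40 to 54 assays, and all 5 detected Notch1, as did all 4 Cdh5 cells in that range, against 9 of 29 collagen-high cells (31.03%). The number of cells limits what that comparison shows.

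Jag1 had a different order, with high shares in both Cdh5 and collagen-high cells and low shares in cells with Ptprc only. With at least 24 assays it was detected in 9 of 10 Cdh5 cells that were not collagen-high, in 28 of 44 collagen-high cells without Cdh5 (63.6%, interval 47.8 to 77.6%) and in 6 of 36 Ptprc-only cells (16.7%, 6.37 to 32.8%). The collagen-high cells exceeded the Ptprc-only cells by 46.97 points (25.8 to 62.3; set A 66.8, set B 28.2). Here the median number of assays differed, 51.5 against 34. In the range of 40 to 54 assays the counts were 17 of 29 collagen-high cells (58.6%) and 2 of 5 Ptprc-only cells. That difference of 18.6 points had an interval from -22.4 to 51.01, so at matched depth it was not detectable with 5 cells.

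Against all other cells with at least 24 assays, Jag1 was 30.4 points higher in collagen-high cells (interval 10.3 to 47.3). That size was common, as 36.8% of assays were 20 points or more higher there, and Jag1 ranked 28th of 95. In the kept cells the difference was 50.1 points (34.1 to 63.5), and 52.6% of assays were 20 points or more higher. In Cdh5 cells with at least 24 assays it was 41.2 points higher (11.05 to 56.8), again in the direction that 30.5% of assays shared, while 8.42% were as much lower, and in the kept cells 54.6 points higher (26.5 to 70.6). In the range of 40 to 54 assays, chosen after the values were seen, Jag1 differed by -3.33 points between collagen-high and other cells and by 2.86 points between Cdh5 and other cells. That range held only 5 Ptprc-only cells and 4 Cdh5 cells that were not collagen-high, and 3 of these 4 detected Jag1. The other cells thus included Cdh5 cells, and so few cells cannot show whether the higher shares hold at matched depth. Among the kept cells of no class, with a median of 15 assays, 1 of 48 detected Jag1, and with at least 24 assays 1 of 3 did. Neighbours in this order were not all apart: the Cdh5 cells exceeded the collagen-high cells by 26.4 points with an interval from -6.55 to 43.3.

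Notch2 was nearly universal in collagen-high cells, at 45 of 46 (97.8%), and lower in the Cdh5 cells that were not collagen-high, at 7 of 10. The difference of Cdh5 minus collagen-high cells without overlap was -27.7 points for Notch2 (interval -58.1 to -6.27), opposite in sign to that for Notch1. All 18 collagen-high cells with Notch1 also detected Notch2, whereas 3 of the 13 Cdh5 cells detected Notch1 without Notch2.

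**Figure D2:**
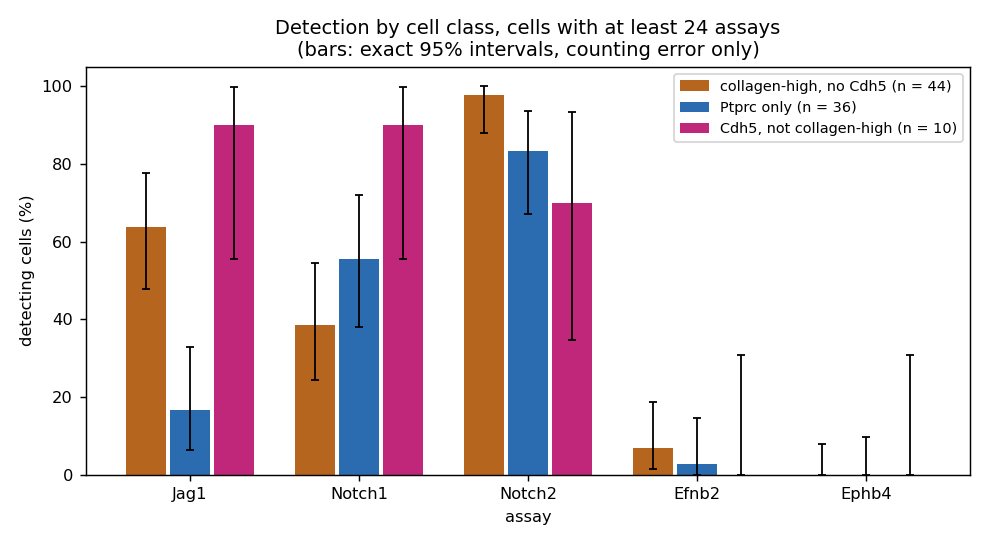
Share of cells with at least 24 assays that detected each gene (vertical axis, percent) in 44 collagen-high, 36 Ptprc-only and 10 Cdh5 cells, with exact 95% intervals as bars. Jag1 is lowest in Ptprc-only cells at 16.7%, Notch1 is lowest in collagen-high cells at 38.6%, and Efnb2 and Ephb4 lie at or near 0 in every class.

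The 13 Cdh5 cells were not alike. In 8 of them Cdh5 itself came up between Ct 12.9 and 16.1, all 8 detected Pecam1, another endothelial adhesion molecule, below Ct 15, and 7 of the 8 were EKO cells of set A. Every one of these 8 detected Notch1, at Ct 18.9 to 24.3, and 7 detected Jag1, at Ct 15.1 to 20.6. In the other 5, Cdh5 came up at Ct 20.4 to 25.05, 1 detected Pecam1, 2 detected Notch1 and 3 detected Jag1. This division at Ct 17 was made after the values were seen.

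The highest levels of both genes were in a single EKO cell of set A with 70 assays, the most of any cell. There Cdh5 stood at Ct 12.9, Jag1 at 15.1, Notch2 at 15.6 and Notch1 at 18.9. The same cell detected Ptprc at Ct 11.7. Whether it held more than 1 cell was not tested.

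Levels were compared only within an assay. Notch1 ran from Ct 18.9 to 31.2 over its 62 cells, with a median of 23.2 ± 1.70 (SD over cells). By class its medians were 23.6 ± 1.20 in 17 collagen-high cells, 23.05 ± 1.35 in 27 Ptprc-only cells and 22.5 ± 1.66 in 9 Cdh5 cells, which as raw Ct differ by less than the spread between cells. Relative to the median Ct of each cell's own other assays, Notch1 stood at 6.73 ± 1.06 cycles in the collagen-high and 4.35 ± 1.31 in the Ptprc-only cells. That difference was 2.38 cycles, larger than the spread in either class, beside 0.55 cycles as raw Ct. Jag1 ran from Ct 15.1 to 23.02 over 45 cells, with a median of 19.6 ± 1.55. Its medians were 19.1 ± 1.57 in 28 collagen-high cells, 20.3 ± 0.557 in 6 Ptprc-only cells and 19.6 ± 1.80 in 9 Cdh5 cells. Collagen-high minus Ptprc-only was -1.18 cycles as raw Ct and 0.49 cycles relative to each cell's own median, so its sign turned with the scaling. Notch2 had a median of 21.6 ± 1.97 over 98 cells.

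Receptor and ligand met in the same cells. Of the 170 kept cells, 27 detected Notch1 and Jag1 together, 35 detected Notch1 alone of the pair, 18 detected Jag1 alone and 90 neither. Notch1 was found in 60% of the Jag1 cells (interval 44.3 to 74.3%) and in 28% of the others (20.3 to 36.7%), a difference of 32 points (15.2 to 46.8). Among cells with at least 24 assays the second share was 44%, and the difference was 16 points with an interval from -3.98 to 34.3.

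The pairing was seen within the collagen-high cells. Of 29 that detected Jag1, 15 detected Notch1 (51.7%, interval 32.5 to 70.6%), against 3 of 17 without Jag1 (17.6%, 3.80 to 43.4%), a difference of 34.1 points (4.99 to 54.5). That comparison was not divided by genotype or set. In Cdh5 cells 9 of the 10 with Jag1 had Notch1, against 33.3% of the few without. In Ptprc-only cells 3 of the 6 with Jag1 had Notch1, against 24 of 59 without. All 45 Jag1 cells detected Notch1 or Notch2 and 23 detected both, but among the 95 cells with at least 24 assays 93 detected a receptor, so a receptor was nearly universal at that depth.

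**Figure D3:**
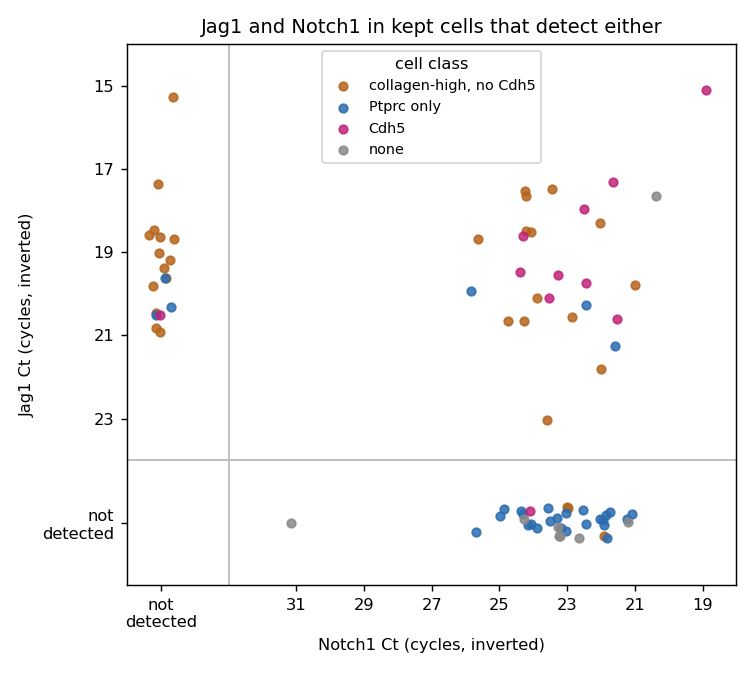
Ct of Notch1 (horizontal axis, cycles, inverted) and of Jag1 (vertical axis, cycles, inverted) in the kept cells that detected either, coloured by class, with cells that lacked 1 of the 2 placed beyond the grey lines and spread for visibility; the Cdh5 colour includes 2 collagen-high cells. The 27 cells with both lie at upper right, and the 35 cells with Notch1 alone, along the lower edge, are mostly Ptprc-only cells.

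Other genes differed between cells with and without each member. The likeness of detection patterns was measured by phi, a correlation of detected against not detected, over the 95 cells with at least 24 assays and the 64 assays that could be compared. It is given as a description, since cells of the same depth and class share it. For Jag1 the closest assay was Ackr3 (Cxcr7 in the table), the scavenging receptor for Cxcl12, with phi 0.53 (set A 0.60, set B 0.45). Ackr3 was detected in 84.4% of Jag1 cells and 32% of the others. Next came Timp1, an inhibitor of matrix metalloproteinases (phi 0.46), and Cd55, a complement regulator (0.45).

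For Notch1 the closest assays were weaker and differed by set. Pecam1 had phi 0.31, 0.47 within set A and 0.13 within set B, and was detected in 63.3% of Notch1 cells and 32.6% of the others. Birc5, the mitotic and anti-apoptotic protein survivin, followed at 0.28 and Nos3, the endothelial nitric oxide synthase, at 0.26. When Cdh5 cells were left out, phi was 0.22 for Pecam1, 0.33 for Birc5 and 0.12 for Nos3, while Ackr3 with Jag1 stayed at 0.54. Efnb2, with 4 such cells, was too rare for this measure.

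In Jag1 cells 24.2% of the 95 other assays were detected at least 20 points more often than in cells without it and 3.16% at least 20 points less often, with a median of 10.2 points over all assays. Of the 12 sprouting and vessel-stabilising genes measured, 5 passed that size. They were Tek (Tie2, an angiopoietin receptor; 42.2% against 8%), Eng (endoglin, a TGF-beta co-receptor; 68.9% against 38%), Angpt1 (a Tek ligand; 42.2% against 12%), Vegfa (77.8% against 48%) and Kdr (a VEGF receptor; 37.8% against 12%). The median of the list was 17.7 points. Of 9 genes known to respond to Notch signalling, 2 passed, Kdr and Myc (88.9% against 60%), with a list median of 15.6 points. Among 8 haematopoietic genes none was 20 points higher and Cd48, a leukocyte surface protein, was lower (51.1% against 80%).

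In Notch1 cells 5.26% of assays were at least 20 points more often detected and 2.11% less often, with a median of 1.64 points. Of the sprouting genes 1 passed, Pdgfb (a pericyte-recruiting growth factor; 34.7% against 13.04%), and none of the 9 Notch-responsive genes did, with list medians of 9.43 and 3.11 points. Among the 7 mesenchymal genes, with a list median of -9.89 points, only Pdgfra was at least 20 points lower (38.8% against 65.2%). It encodes a receptor of fibroblast precursors. The 9 endothelial genes had a list median of 16.2 points, and 1 of them, Pecam1, was at least 20 points higher.

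Of the assays past 20 points for both genes, 4 stood on opposite sides for the ligand and the receptor with an equal sign in both sets: Pdgfra, Cxcr4, Mki67 and Wnt5a. Pdgfra was 32.9 points higher in Jag1 cells (34.8 in set A, 32.7 in set B) and differed by -26.4 points in Notch1 cells (-38.7 and -13.6). Its detection also went with class. In the kept cells it was found in 44 of 44 collagen-high cells without Cdh5 and 2 of 65 Ptprc-only cells. Of the 11 Cdh5 cells that were not collagen-high, 0 detected it. Cxcr4, the signalling receptor for Cxcl12, differed by -22.4 points in Jag1 cells (-14.2 and -31.5) and by 24.4 points in Notch1 cells (26.7 and 21.97). Mki67, a marker of proliferating cells, differed by -20.4 points in Jag1 cells (-13.5 and -29.6) and by 21.5 points in Notch1 cells (19.2 and 24.2). Wnt5a, a Wnt ligand, differed by 23.6 points in Jag1 cells (23.7 and 24.6) and by -22.5 points in Notch1 cells (-33.5 and -10.98). The genes of the last 3 paragraphs that are not the closest by phi were picked for their size after the values were seen. Jag1 and Notch1 cells overlapped, as 27 of the 45 Jag1 cells also detected Notch1. The contrast between ligand and receptor was not tested and was not separated from class.

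Between genotypes, Notch1 was detected in more of the EKO than of the WT cells. In set A it was found in 11 of 48 kept WT and 23 of 39 kept EKO cells, and in set B in 12 of 45 and 16 of 38. Over both sets that was 24.7% of WT and 50.6% of EKO cells, a difference of 25.9 points (interval 11.3 to 39.2; set A 36.1, set B 15.4). The limit of 10 assays left out more EKO than WT cells, and none of the 22 cells left out detected Notch1. Over all deposited cells 23 of 96 WT and 39 of 96 EKO cells detected it, a difference of 16.7 points. In the kept cells the difference met a size rule, at least 10 points and an equal sign in sets A and B, that 20.8% of the 96 assays met.

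Depth moved with this difference. Among cells with at least 24 assays it was 15.6 points (interval -4.43 to 34.04), 34.7 within set A and -5.56 within set B, and so it no longer met the rule, which 4.17% of assays met there. Within ranges of other assays detected the difference was 21.8 points with 10 to 23 (6 of 52 WT and 8 of 24 EKO cells), 20.8 with 24 to 39 (4 of 12 and 13 of 24), 14.6 with 40 to 54 (10 of 24 and 9 of 16) and 9.23 with 55 or more (3 of 5 and 9 of 13). All 4 were above 0, but only the first had an interval above 0 (2.65 to 42.7), and in set B the value for 40 to 54 was -17.0.

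The Cdh5 cells also moved with it, as they made up 9 of 39 EKO and 1 of 48 WT cells of set A and 1 of 38 and 2 of 45 of set B. Without the Cdh5 cells the Notch1 difference was 22.9 points (interval 7.95 to 36.9; set A 26.6, set B 19.99), and with at least 24 assays it was 11.2 points (-9.91 to 30.99; 21.5 and 0 by set). Of the classes, the Ptprc-only cells had the most alike sets: 10 of 35 WT cells (28.6%) and 17 of 30 EKO cells (56.7%) detected Notch1, a difference of 28.1 points (4.08 to 48.2; set A 27.5, set B 30). Their median number of assays was 21 in WT and 29.5 in EKO, and with at least 24 assays the counts were 7 of 14 and 13 of 22, a difference of 9.09 points (-21.8 to 38.2). In collagen-high cells 9 of 25 WT and 9 of 21 EKO cells detected it, a difference of 6.86 points (-19.9 to 32.8) with opposite signs in the sets.

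**Figure D4:**
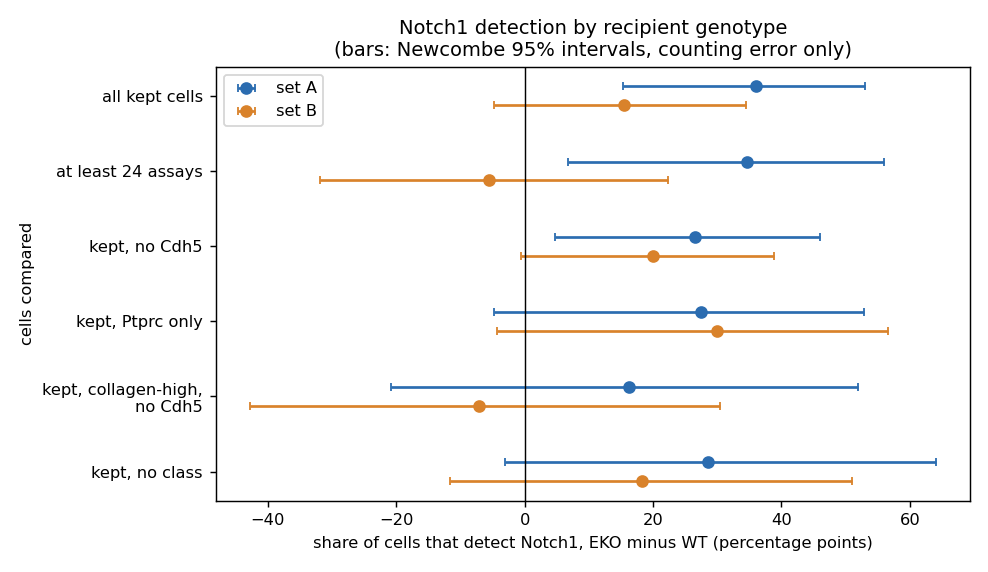
Difference in the share of cells that detected Notch1, EKO minus WT in percentage points (horizontal axis), in each set for 6 choices of cells (vertical axis), with Newcombe 95% intervals as bars. Set A lies above 0 in every choice, and set B lies at -5.56 among cells with at least 24 assays and at -7.14 in collagen-high cells without Cdh5.

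Jag1 showed a smaller difference, which was near 0 among cells with at least 24 assays. In set A 12 of 48 WT and 13 of 39 EKO cells had it, and in set B 8 of 45 and 12 of 38. The shares over both sets were 21.5% and 32.5%, a difference of 10.96 points (interval -2.33 to 24.1) that met the size rule (8.33 and 13.8 in sets A and B). Over all deposited cells 20 of 96 WT and 25 of 96 EKO cells had it, a difference of 5.21 points, short of the rule. With at least 24 assays the shares differed by -0.45 points (-19.9 to 18.96). In collagen-high cells 17 of 25 WT (68%) and 12 of 21 EKO cells (57.1%) detected Jag1, a difference of -10.9 points with an interval from -36.2 to 16.01. Notch2 was detected in 49 cells of each genotype, a difference of 10.9 points with opposite signs in set A (-2.40) and set B (24.8), and of -6.06 points with at least 24 assays.

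Notch1 also had an earlier median Ct in the EKO cells that detected it, and the groups overlapped. Its Ct ran from 18.9 to 24.4 in 39 EKO cells, with a median of 22.6 ± 1.20, and from 21.1 to 31.2 in 23 WT cells, with a median of 24.1 ± 2.05. The difference was -1.44 cycles (set A -1.02, set B -1.52), smaller than the SD of the WT cells and larger than that of the EKO cells. The SD of the WT cells was 0.866 in set A and 2.75 in set B, which held the cell at Ct 31.2. Of the 47 assays that 10 or more cells of each genotype detected in each set, 38.3% were at least 1 cycle earlier in EKO with the same sign in both sets. The median over these assays was -0.83 cycles, so an earlier Ct was common to much of the panel. Relative to the median of each cell's own other assays, the Notch1 difference was -1.13 cycles (set A -0.20, set B -2.47). For Jag1 the medians were 19.2 ± 1.49 in EKO and 19.7 ± 1.63 in WT, a difference of -0.53 cycles.

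**Figure D5:**
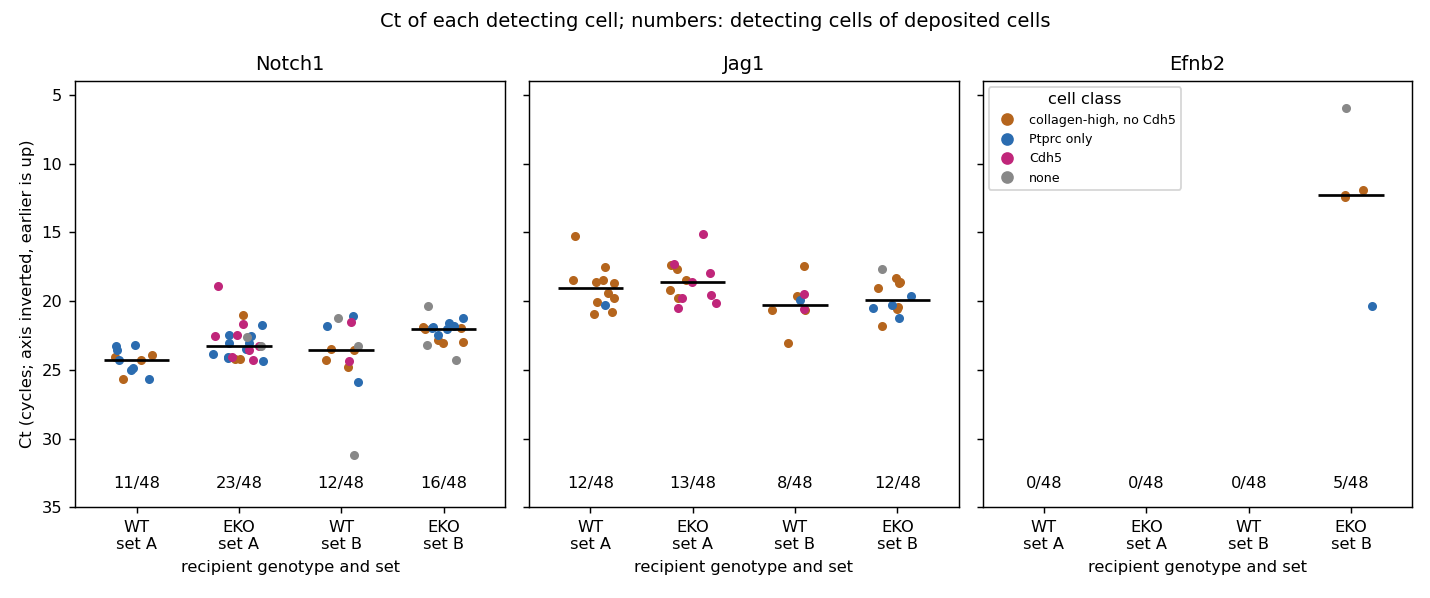
Ct of each detecting cell (vertical axis, cycles, inverted so that a higher level is up) for Notch1, Jag1 and Efnb2 by recipient genotype and set (horizontal axis), coloured by class, with medians as black lines and the count of detecting among deposited cells at the foot. The Notch1 counts are 11 and 23 in set A and 12 and 16 in set B, and all 5 Efnb2 cells are EKO cells of set B.

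Among related genes, the 9 measured Notch-responsive genes had a median difference of 7.02 points between genotypes in the kept cells, beside 5.70 over all assays, and 3 met the rule that 20.8% of all assays met. These were Bcl2, an inhibitor of apoptosis (23.1 points), Myc, a growth regulator (16.2), and Runx1, a haematopoietic transcription factor (15.2). With at least 24 assays the median was -0.76 and only Bcl2 still met it (15.7 points), beside 4.17% of all assays. The 8 arterial and venous genes include the 4 members themselves. In the kept cells 3 of the 8 met the rule, again beside 20.8%. They were the members Notch1 and Jag1, reported above, and Cxcr4 (13.2 points), the only one of the 4 other genes. None of the 8 met it with at least 24 assays, where Tek was lower (-12.1 points), as were 11.5% of all assays by the same size. Of the 12 sprouting genes none met it, and their median was 6.16 points. The largest differences there were Flt1, a VEGF receptor (11.1 points, 24.04 in set A but -2.22 in set B), and Pdgfb (8.50).

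Marker lists of the cell types that the sort could hold were compared between genotypes in the same cells, and sets A and B mostly disagreed in sign for endothelial and mesenchymal markers. With at least 24 assays the 9 endothelial markers had a median difference of 9.84 points, with 1 higher and 1 lower by the rule, and the 7 mesenchymal markers one of -11.6 points, with 2 lower. Over all assays 4.17% were higher and 11.5% lower by that rule. The 8 haematopoietic markers had a median of 1.98 points with none past the rule, Trp63 was the single epithelial marker measured (5.17 points), and no erythroid or platelet marker was measured. Their part in the Notch1 difference was not tested beyond the divisions by class given above.

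Efnb2 was detected in 5 cells, and all 5 were EKO cells of set B. In 3 collagen-high cells, with 52, 60 and 61 assays, it came up at Ct 11.9, 12.3 and 12.5. In a Ptprc-only cell with 29 assays it came up at Ct 20.3. In a cell with 9 assays, below the limit of 10 and so outside the kept cells, it came up at Ct 5.96. In the kept cells that made 0 of 93 WT cells (upper limit 3.23%) and 4 of 77 EKO cells (5.19%), a difference of 5.19 points (set A 0, set B 10.5), short of the size rule.

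The Ct of most of these reactions was early for the panel, although Ct is not comparable between assays as a level. Efnb2 ranked 3rd of the 92 assays with any detection by median Ct, at 12.3, beside a median of 18.8 over assays, and 4 of the 5 Ct values were below 15. In the cell with 9 assays it came up before Rn18s, the 18S ribosomal RNA, which stood at Ct 6.77, and Angpt1 came up at 5.90 in that cell. The only other assay to precede Rn18s anywhere was Angpt1, in 3 EKO cells including this one. Of the 5 Efnb2 cells 4 detected Angpt1, beside 8 of the 48 EKO cells of set B and 30 cells in all, counts that include these 4. Whether these early reactions read Efnb2 transcript was not tested.

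Of the 5 Efnb2 cells, 2 detected Notch1, at Ct 21.99 and 22.03, and Jag1, at 21.8 and 18.3, and both were collagen-high. The remaining collagen-high cell detected neither, and 4 of the 5 detected Notch2. No Cdh5 cell detected Efnb2: a count of 0 of 13 has an upper limit of 23.1%, and the 8 cells with early Cdh5 were among them. Ephb4 was detected in 0 of 192 cells (upper limit 1.56%) and in 0 of the 13 Cdh5 cells. No sample known to express Ephb4 was analysed here, so an Ephb4 transcript below its detection cannot be told apart from none.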

How the data were processed

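Lineage-negative, GFP-positive cells from wounds of WT and EKO recipients were read with 96 TaqMan assays each, per the labels. The authors deposited a table of score values that is described as non-normalized and names no unit. They were taken for raw Ct: the range is 4.49 to 40, and 69.7% of the 18432 reactions stand exactly at 40. The software, threshold and preamplification are not stated in the labels used here, nor are the gate's antigens or the number of animals. The labels gave each cell's genotype and number, and the first letter of a title its set. Names were matched to a RefSeq table of mouse genes (88 symbols and 5 synonyms of 96, the other 3 kept as written).

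The members, gene lists, classes and size rules were chosen with earlier results of these data known. Named genes were the members, all measured Notch and ephrin genes, up to 3 of each other list with the largest genotype difference, and the 3 closest by phi, and others are said to be picked after seeing values. A size rule was 10 points and an equal sign in sets A and B for genotypes and 20 points for classes, and no rule is a test. No p-value was computed, since each genotype is 1 sample. Alternatives were Ct limits of 35 and 30, filters on cells, each set alone, other class limits and other scalings of Ct. The functions were tested on simulated data. Scripts ran under Python 3.11.15 with SciPy 1.17.1, pandas 2.3.3, NumPy 2.4.6 and matplotlib 3.10.9.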

Additional observations from a re-analysis of the deposited data

How the results depend on the processing

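Of 191 values under alternatives, 173 stayed within the main interval (for Ct, within 1 SD), 15 left it, and in the remaining 3 a value past its size rule changed sign. Over all 191 the sign differed from that of the main value in 15, these 3 included. The alternatives with 40 to 54 assays, without Cdh5 cells and with the Cdh5 limit of Ct 17 were added once the data had been seen. For the genotype difference, Notch1 moved from 25.9 to 11.2 points without Cdh5 cells at 24 assays or more, and Jag1 turned from 10.96 to -0.45 points at 24 assays or more and to -7.52 without Cdh5 cells as well. Efnb2 was 0 in set A alone. For collagen-high against other kept cells, Notch1 moved from 3.65 to -24.1 points at 24 assays or more, -13.1 without cells of more than 1 class and -70.0 with 40 to 54 assays. Jag1 moved from 50.1 to 30.4 and, with 40 to 54 assays, turned to -3.33. Efnb2 was 0 in set A. For Ptprc cells, Jag1 moved from 12.3 points to -15.3 at 24 assays or more, -1.93 in set A, 25.03 in set B, -9.89 without cells of more than 1 class and -4.00 with 40 to 54 assays, and Efnb2 to -6.67 there. For Cdh5 cells, Notch1 moved from 43.8 to 66.7 points with Cdh5 below Ct 17, and Jag1 from 54.6 to 2.86 with 40 to 54 assays. The causes were not tested. Co-detection stayed within its main intervals and median Ct within 1 SD under the alternatives run. No paired analysis was possible because the labels name no replicates shared between the genotypes. With 1 sample per genotype, neither the spread between animals nor the position in the set can be separated from genotype.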
